A study of Mus musculus with 2 samples.

Results

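Cortical layer 6 was followed in Visium HD data of the injured mouse brain, as the bins in which transcripts of Rprm, Syt6 and Foxp2 made up the highest share of all transcripts. A bin was a square of tissue with a side of 16 µm and could hold parts of several cells. Bins with at least 100 unique molecular identifiers (UMIs, each standing for 1 counted probe pair) were scored by the share of UMIs from the 3 genes in the surrounding block of 5 by 5 bins, provided that the block held at least 10 UMIs of Slc17a7, the vesicular glutamate transporter of cortical excitatory neurons. Members were the bins selected on this score, at or above the 96th percentile of the uninjured side of the same section. They numbered 1981 of 119617 bins at 3 days and 885 of 103316 bins at 28 days, 2866 of 222933 in all.

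The sections came from male C57Bl6 mice aged 3 months at the time of injury, 1 mouse taken 3 days and 1 mouse taken 28 days after it. The injury was controlled cortical impact (CCI), a traumatic brain injury made by a piston that strikes the exposed cortex on 1 side. Age at sampling therefore also differed between the time points. Mice were given anesthesia (ketamine and medetomidine) and pain relief (buprenorphine and local bupivacaine) for the surgery, and no further treatment was described. All comparisons set the injured side of a section against the opposite side of the same section, which lacked the bone opening as well as the impact. The effects of surgery and impact therefore cannot be told apart. Sham mice were not analysed here. With 1 section per time point there was no spread between animals to test against. No p-values are given, and all intervals are exact 95% intervals that cover counting error only. Levels are CPM, the UMIs of a gene per 1000000 UMIs over the summed bins of a side, differences are log2 ratios of injured over opposite side, and a gene was counted as higher or lower from 1.5-fold (0.58 on the log2 scale). Since a bin is a mixture, fewer cells of a type and less RNA per cell cannot be told apart in any value below. The sections held 120615873 UMIs at 3 days and 82422389 at 28 days.

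Layer 6 is the deepest layer of the neocortex, next to the white matter. Its corticothalamic neurons send axons to the thalamus, from which they also receive input, and carry the transcription factors Tbr1, Tle4 and Foxp2 together with Rprm, an inhibitor of the cell cycle, Syt6, a synaptotagmin, and Hs3st4, a heparan sulfate sulfotransferase. Beneath them lies layer 6b, a thin sheet of neurons that express Ccn2, Cplx3 and Nr4a2. Because a cortical impact strikes from above, deep layers beside the struck area can lie at the rim of the lesion.

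The score chose the members, so the numbers on each side are a description. At 3 days 488 of 5249 scored bins on the injured side were members (9.30%) and 1493 of 37309 on the opposite side (4.0%, set by the percentile). At 28 days 264 of 11706 scored bins on the injured side were members (2.26%) and 621 of 15507 on the opposite side. The sides were not scored over equal widths. Scored bins reached 2.06 mm from the line that parts the sides on the injured side at 3 days and 4.61 mm on the opposite side. At 28 days they reached 3.84 and 2.85 mm. The cut lay at 322 CPM at 3 days, with the lowest member at 322.447 and the highest non-member at 322.386, and 435 members and 507 non-members lay within 10% of it. At 28 days it lay at 409 CPM, between 408.476 and 408.676, with 164 members and 212 non-members within 10%. The member count therefore depends on where a dense continuum was cut.

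The members did not form a single kind of tissue. On each side of both sections 1 compact patch close to the line that parts the sides held Tcf7l2, a transcription factor of thalamic and habenular neurons, with opposite-side levels of 403 CPM in the 3 days section and 437 CPM in the other. Its bins had high Syt6 (813 CPM on the opposite side at 3 days) but little Rprm (34.1 CPM) and Foxp2 (15.5 CPM), and Hs3st4 was at 3.10 CPM there. Among the genes that led these patches over the other scored bins were Gng8, Tac2, Sncg, Calb2, Zic1 and Necab2. These data go against the layer 6 label for the patches, which are called the Tcf7l2 patches here (14 injured and 162 opposite bins at 3 days, 210 and 225 at 28 days).

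All other members are called the cortical band, although 178 opposite and 18 injured bins at 3 days lay in scattered patches of fewer than 10 bins, some of them below the neocortex. A patch of 40 opposite bins at 3 days had Foxp2 at 411 CPM. Its Tle4 was at 45.6 and its Hs3st4 at 137 CPM, against 203 and 402 CPM in the whole opposite band. These genes go against the layer 6 name for that patch, which was kept in the band. A further patch of 21 injured bins at 3 days held 5 UMIs of Syt6 but none of Rprm, Foxp2, Tle4, Hs3st4, Nr4a2 or Ccn2. With 7311 UMIs in that patch, 0 UMIs of a gene allow a level of up to 410 CPM, so its layer cannot be told from these genes. Without it 886 of 7301 genes were higher on the injured side of the band (12.1%) and 748 lower (10.2%), against the 896 and 765 of 7318 given below with it. At 3 days the band held 474 bins on the injured side, with 453141 UMIs and a median of 956 UMIs per bin, and 1331 bins on the opposite side, with 1307292 UMIs and a median of 892. At 28 days it held only 54 injured bins with 51458 UMIs, against 396 opposite bins with 354257 UMIs. The genes of the rule were not in the same proportion on both sides of the band at 3 days: Syt6 was at 267 CPM on the injured and 144 CPM on the opposite side, Foxp2 at 50.8 and 133 CPM, and Rprm at 126 and 164 CPM. The band was thus reached mainly through Syt6 on the injured side, and when Syt6 was left out of the score, the injured side had 160 members.

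**Figure D1:**
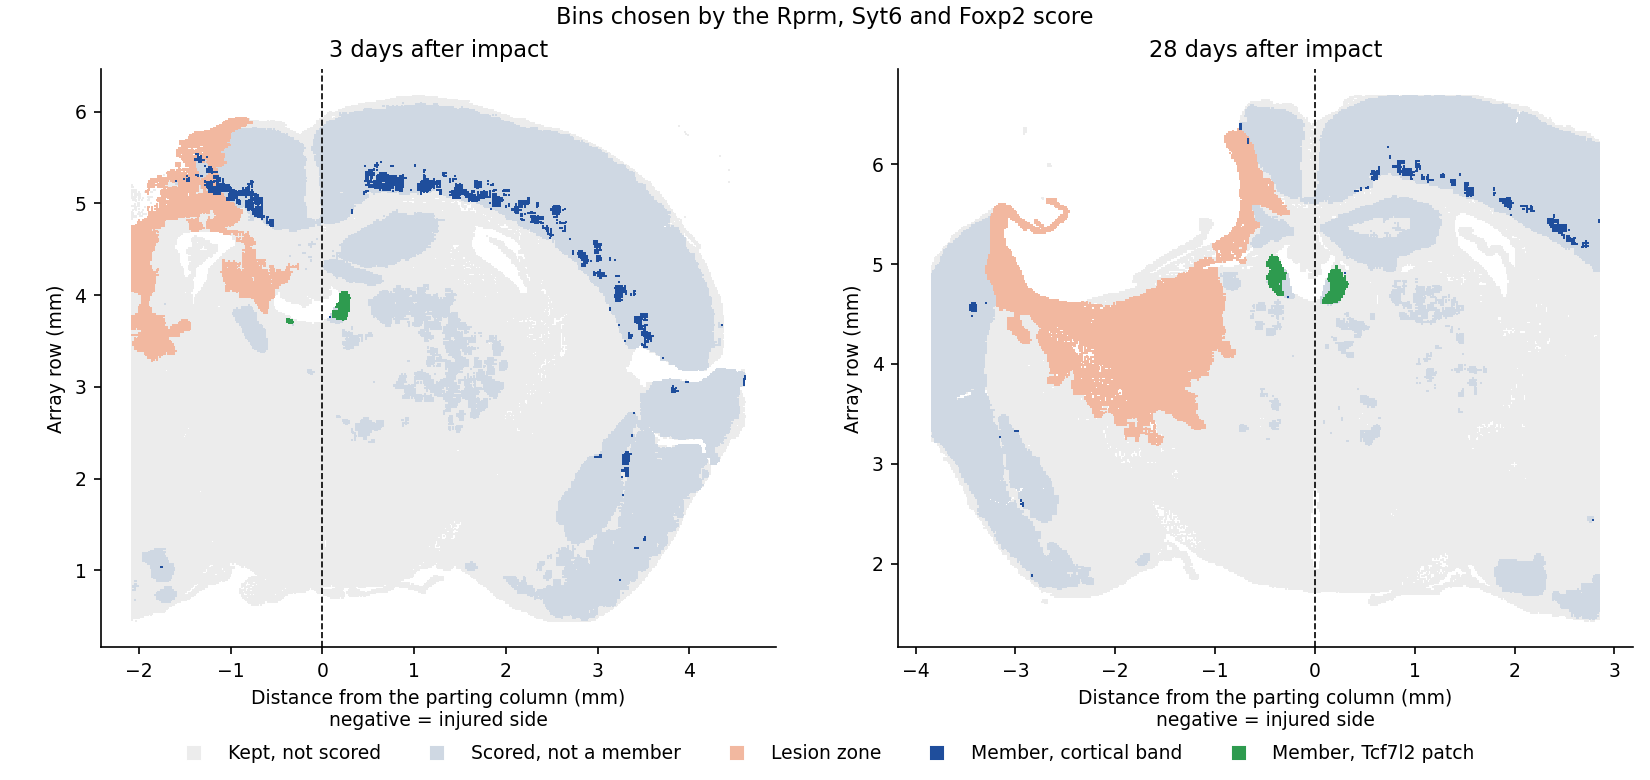
Position of the member bins in the 3 days (left) and 28 days (right) sections, with distance from the parting column in mm on the x axis and array row in mm on the y axis. The cortical band largely follows the deep edge of the cortex on the opposite side, the Tcf7l2 patches lie close to the parting column, and at 28 days only 54 bins of the injured side belong to the band.

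Genes that the rule did not use placed the band of the opposite side, taken as a whole, in layer 6. Hs3st4 was at 402 CPM in the band against 124 CPM in the other scored bins of that side at 3 days, and in the later section 353 against 170 CPM. Tbr1 had 385 against 168 CPM in the earlier and 429 against 170 CPM in the later section, and Tle4 203 against 59.1 CPM and 175 against 82.3 CPM. Ccn2, of layer 6b, was at 90.3 against 39.6 CPM and at 133 against 27.0 CPM, so that the band took in the border to the white matter. Genes of upper layers were lower in the band than elsewhere, as for Lamp5 (89.5 against 240 CPM at 3 days) and Rasgrf2 (73.4 against 281 CPM). Among abundant genes the band was led in both sections by myelin genes, among them Mbp and Mobp, followed by Ncald, a neuronal calcium sensor, and Pcp4, a calmodulin-binding peptide of deep-layer neurons.

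The 2 sides of the band did not cover the same stretch of cortex, and this bears on every difference below. At 3 days the injured bins lay 0.544 to 1.76 mm from the parting column (median 0.928 mm) and the opposite bins 0.08 to 4.61 mm (median 1.97 mm). On the opposite side several genes changed along that distance. Nr4a2, a nuclear receptor of layer 6b and the claustrum, was at 26.1 CPM within the first mm, 86.9 CPM in the next, 155 CPM from 2 to 3 mm and 508 CPM beyond 3 mm. Synpr, a synaptic vesicle protein of the claustrum, was at 56.5, 24.8, 248 and 765 CPM in the same stretches, and Penk, the enkephalin precursor, reached 338 CPM beyond 3 mm. These genes were thus highest in the lateral part of the band, which the injured side did not hold. Scored bins of the injured side ended at 2.06 mm, at the edge of the array, so its missing lateral part cannot be read as tissue loss.

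Myelin and glial genes ran the other way. Mbp, myelin basic protein, was at 2515, 1834, 1665 and 830 CPM from medial to lateral on the opposite side, Gfap, the intermediate filament of astrocytes, at 330, 189, 89.4 and 64.6 CPM, and Ccn2 at 139, 137, 61.9 and 51.7 CPM. Hs3st4 varied less, from 461 and 469 CPM to 368 and 347 CPM. For this reason ratios at 3 days were also taken against the 541 opposite bins at distances that the injured side holds, called the matched bins.

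**Figure D2:**
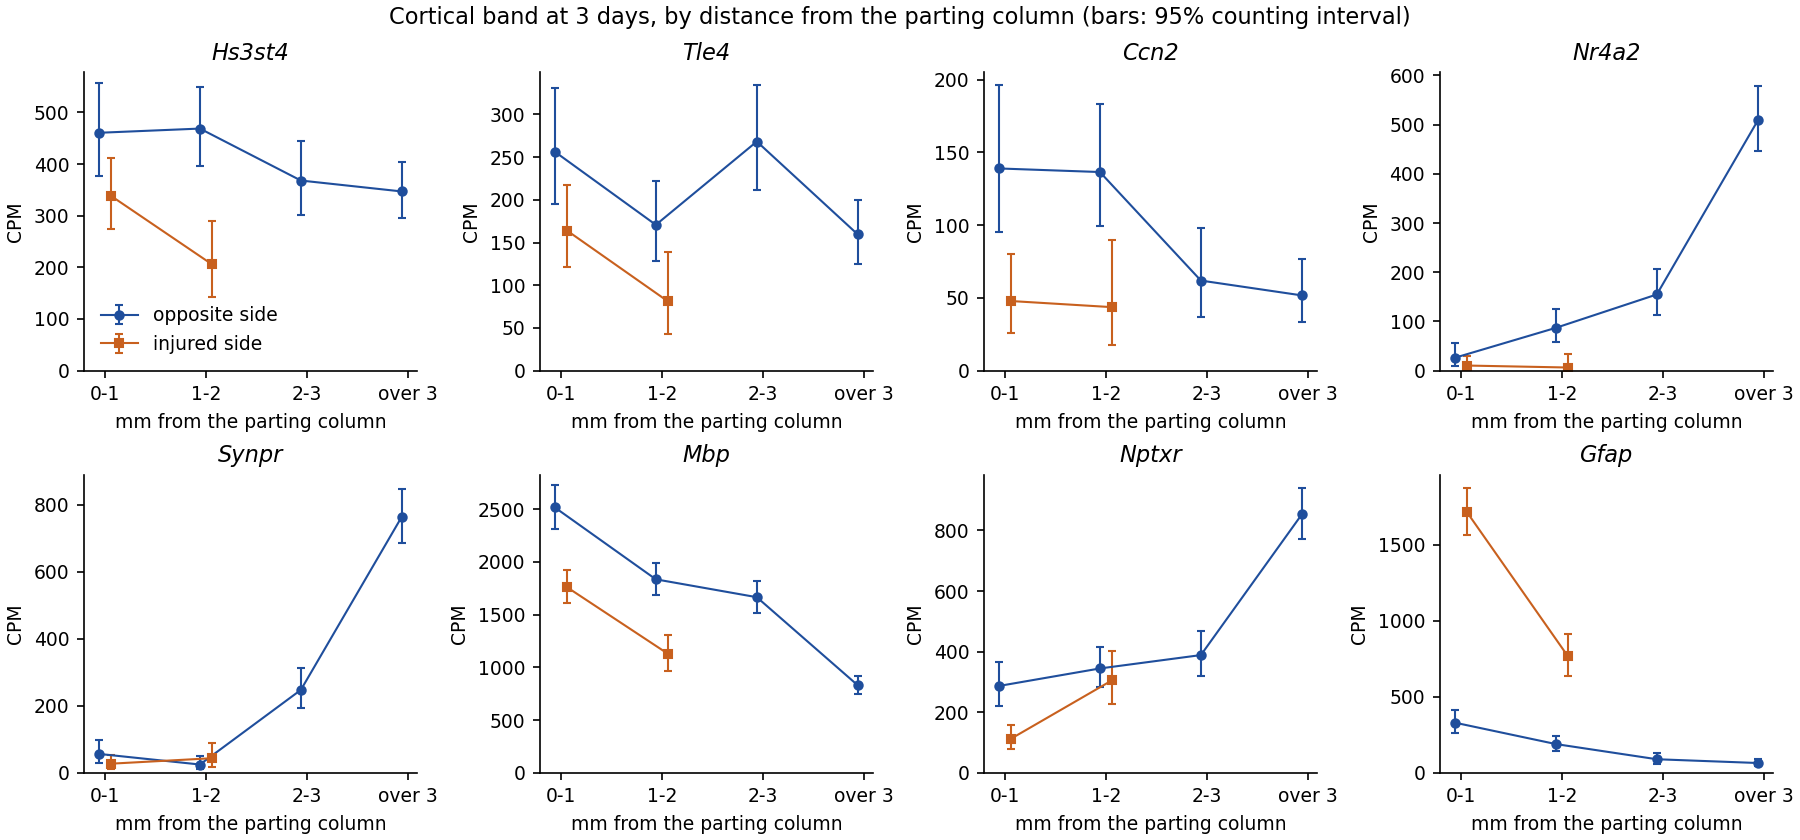
Levels of single genes (CPM, y axis) in the cortical band at 3 days by distance from the parting column in mm (x axis), injured and opposite side, with 95% counting intervals. Nr4a2 and Synpr climb towards the lateral end of the opposite side at 3 days while Mbp and Gfap decline, from 2515 to 830 CPM for Mbp.

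Over all members at 3 days, 923 of 8158 genes were higher on the injured side (11.3%) and 821 lower (10.1%). That count mixes band and Tcf7l2 patches in unlike shares, with 14 of 488 injured and 162 of 1493 opposite members in the patches. Within the cortical band 896 of 7318 genes were higher (12.2%) and 765 lower (10.5%), and for 717 and 571 of these the interval also excluded equal levels. The lists of genes below are read against these shares. Among genes with at least 200 UMIs, the 10 highest ratios were those of Hmox1, Vim, Serpina3n, Gfap, Trf, C1qa, Dhrs1, Mt2, Apod and Cldn11, most of them glial, immune or iron genes. The 10 lowest were those of Nr4a2, Synpr, Penk, Ptgds, Ppp1r1a, Ephx4, Camkv, Nptxr, Cacng3 and Ddn, most of them neuronal.

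Reactive astrocyte genes were far higher on the injured side at 3 days. All 6 reactive astrocyte genes with enough counts were higher, with a median log2 ratio of 3.89, and their summed level was 3577 against 268 CPM (3.74 on the log2 scale, 3.57 to 3.91). Gfap was at 1379 against 148 CPM, a log2 ratio of 3.22 (2.99 to 3.46), and had at least 1 UMI in 56.8% of injured and 12.8% of opposite bins. Vim, vimentin, another intermediate filament, was at 1099 against 32.1 CPM (5.08). Serpina3n, a secreted protease inhibitor, was at 450 against 23.0 CPM (4.27), and Tnc, the matrix protein tenascin C, had a ratio of 5.13. Against the matched bins Gfap was 2.43, Vim 4.37 and Serpina3n 3.68 higher on the log2 scale. Of the homeostatic astrocyte genes 6 of 12 were higher and 1 lower, while the summed level was 3654 against 3993 CPM.

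Complement and microglial genes were higher as well. All 4 measured complement genes were higher at 3 days (median 2.93), with a summed level of 1145 against 142 CPM. The subunits of C1q, which opens the classical pathway, had log2 ratios of 2.67 for C1qa (382 against 59.7 CPM), 2.52 for C1qb and 3.18 for C1qc, and C4b, the next component of that pathway, of 3.93. Both measured microglia genes were higher, among them the growth factor receptor Csf1r with 1.77. Of 9 phagocyte genes 8 were higher (median 1.89), among them Spp1, osteopontin, with 4.58, and the lysosomal genes Cd63 with 2.29 and Ctsb with 1.12. Apoe, the apolipoprotein of astrocytes and reactive microglia, was the exception, at 1077 against 1362 CPM (-0.34). All 3 measured interferon and antigen presentation genes were higher, among them Ifit3, an interferon-induced protein (3.32), and the list summed to 728 against 119 CPM.

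Genes of metal and heme handling formed a further group. Hmox1, heme oxygenase, which breaks down heme, had the highest ratio of all genes with at least 200 UMIs: 426 against 6.12 CPM, a log2 ratio of 6.04 (5.11 to 7.35). Its transcripts were concentrated, with 193 UMIs in 103 of the 474 injured bins, and 117 of them inside the lesion zone. Mt2, a metal-binding metallothionein, was at 794 against 151 CPM (2.40) and Trf, transferrin, an iron carrier that oligodendrocytes make, at 1706 against 246 CPM (2.80). Fth1, the heavy chain of ferritin, was 0.75 higher (0.34 against the matched bins, below the fold used), and Mt3, the neuronal metallothionein, did not differ by the fold used (-0.04). In all 5 of 7 genes of the list were higher, and the sum was 7395 against 3370 CPM.

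Genes of blood-derived and vessel-wall cells were unequal. Of 3 measured mural cell genes 1 was higher and none lower, and the list summed to 369 against 111 CPM. The higher gene was Tagln, an actin-binding protein of smooth muscle, with 110 UMIs on the injured and 0 on the opposite side. With the opposite side set at a floor of 3 UMIs (2.29 CPM) the fold was 105.78. The exact interval, which also covers the injured count, began at a log2 ratio of 6.40. Of the 110 UMIs 57 lay inside the lesion zone. The pericyte gene Rgs5 had -0.14 and Vtn, vitronectin, 0.40. The monocyte and chemokine genes summed to 362 CPM against 7.65 CPM, and Ccl12, a monocyte attractant, was the 1 gene of that list with enough counts. Fibroblast and matrix genes summed to 704 against 176 CPM, and endothelial genes to 587 against 340 CPM with 2 of 4 higher. The part that such cells play in the other lists was not tested.

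Genes of neuronal transmission were lower on the injured side at 3 days, by smaller ratios. Of 18 glutamate receptor and postsynaptic genes 9 were lower and none higher, with a median of -0.56 and a sum of 5711 against 8821 CPM (-0.63, -0.69 to -0.57). Ddn, dendrin, a protein of dendrites, was at 150 against 432 CPM (-1.52, and -1.20 against the matched bins). Cacng3, an auxiliary subunit of AMPA receptors, had -1.52 and Grin2a, a subunit of NMDA receptors, -1.05, and Gria4, an AMPA receptor subunit, -0.87. Camk2a, the kinase of the postsynaptic density, had -0.71. Against the matched bins Grin2a had -0.95, while Gria4 (-0.34) and Camk2a (-0.49) were below the fold used. To this list also belongs Nrgn, a postsynaptic calmodulin-binding protein, with -0.77. Camkv, a kinase-like protein of neurons, had -1.60 and Nptxr, the neuronal pentraxin receptor, was at 181 against 525 CPM (-1.53, and -0.72 against the matched bins).

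Of 15 synaptic vesicle genes 4 were lower and none higher (median -0.44), and their sum was 10094 against 14193 CPM. Snap25, a membrane fusion protein of nerve terminals, was at 2988 against 4932 CPM (-0.72), and Unc13a, which primes vesicles for release, had -1.06. Against the matched bins the sums of both lists were lower as well, with log2 ratios of -0.47 for synaptic vesicle genes and -0.54 for the glutamate list. Among GABA receptor genes 4 of 11 were lower and 1 higher, with -1.44 for Gabrd, and among potassium channel genes 5 of 17 were lower and 1 higher, with -1.20 for Kcnq3 and -1.11 for Kcnq5, subunits of the channel behind the M current. Neuronal structure and energy genes did not move with them: none of 9 cytoskeleton genes passed the fold in either direction (median 0.10; against the matched bins Tubb3, a neuronal tubulin, did with 0.65), and of 17 oxidative phosphorylation genes 1 was lower and none higher (median -0.04).

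The layer genes behaved unequally. Among the 7 measured corticothalamic genes outside the rule 2 were lower and none higher (median -0.12), with a sum of 1068 against 1283 CPM. Tbr1 differed by -0.12 and Hs3st4 by -0.46, below the fold used (-0.62 against the matched bins, past it), while Tle4 was at 135 against 203 CPM (-0.59), which was -0.56 and below the fold without the patch of 21 bins, and whose direction turned when Syt6 (0.34) or Foxp2 (0.033) was left out of the score. At like distances Hs3st4 was at 338 against 461 CPM within the first mm and at 206 against 469 CPM in the next. Layer 6b genes were all lower: Nr4a2 was at 8.83 against 241 CPM (-4.60), Cplx3, a regulator of transmitter release, had -2.70 and Ccn2, a matrix-associated growth factor, had -0.93 (0.28 without Foxp2 in the score), and the list summed to 68.4 against 393 CPM. Nr4a2 was higher with distance on the opposite side, and the list sum had a log2 ratio of -2.32 against the matched bins as well. Synpr, at 33.1 against 343 CPM (-3.33), did not differ against the matched bins (0.06), and upper layer genes went from a median of -1.28 to 0.28.

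Immediate early genes, which neurons switch on after activity, had 4 of 9 members higher and none lower, with a sum of 1935 against 1737 CPM. Npas4, an activity-dependent transcription factor of neurons, was at 254 against 59.7 CPM (2.09) and Fos had 1.38, whereas Egr1 had -0.50, below the fold used (-0.68 against the matched bins, past it). Myelin genes had 6 of 10 members higher (median 0.68, sum 5782 against 4092 CPM), with Cldn11, the tight junction protein of myelin, at 861 against 225 CPM (1.94), Mag, a myelin adhesion protein, at 1.04 and Mobp at 0.62. Against the matched bins the myelin median was -0.02, with 1.26 for Cldn11, 0.51 for Mag and 0.06 for Mobp. Mbp itself was at 1760 against 2515 CPM within the first mm and at 1128 against 1834 CPM in the next.

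The lists above were set against the matched bins as well. The log2 ratio of the summed level was then 3.19 for reactive astrocyte genes, 2.69 for complement, 2.67 for interferon and antigen presentation, 1.37 for microglia and 1.90 for fibroblast and matrix genes. It was 0.92 for metallothionein and iron genes, 1.38 for mural cell genes, 0.62 for endothelial genes and 0.58 for phagocyte genes, just below the fold used. Among neuronal lists it was -0.34 for GABA receptor, -0.020 for potassium channel and -0.14 for neuropeptide genes. These glial, immune and vessel lists thus kept their direction, while potassium channel genes, like immediate early genes (1935 against 1936 CPM), were close to equal. Most of the mural cell sum on the injured side came from Tagln, at 243 against 0 CPM over the whole band.

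**Figure D3:**
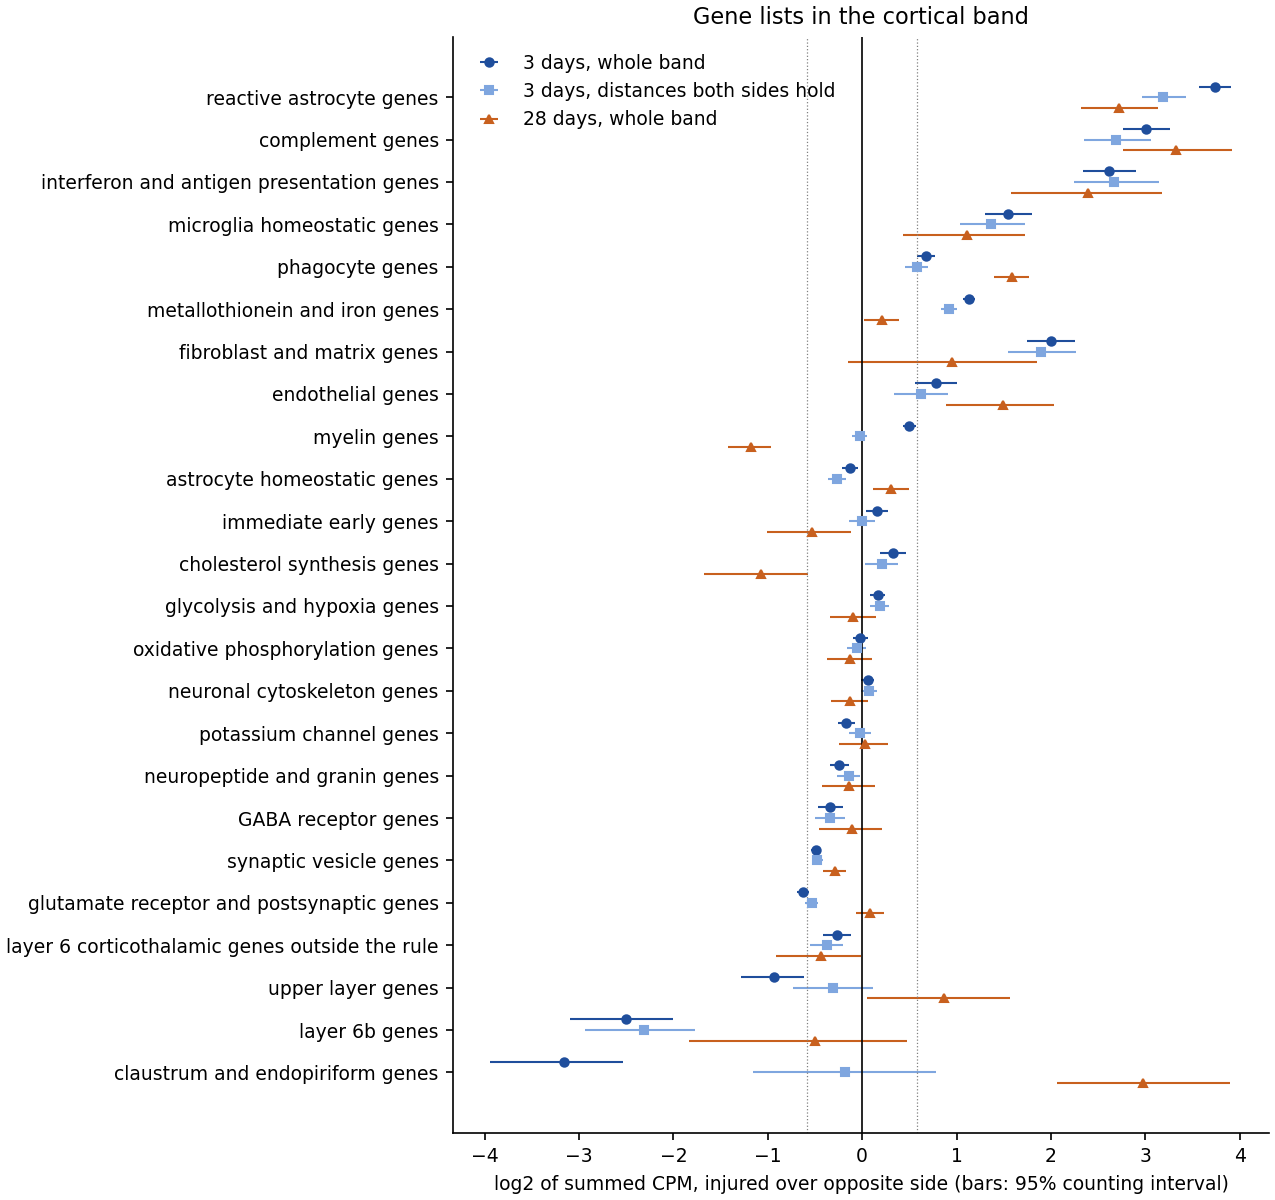
Log2 ratio of summed CPM, injured over opposite side (x axis), for lists of genes in the cortical band, with 95% counting intervals and dotted lines at 1.5-fold. Reactive astrocyte and complement genes lie between 2.69 and 3.74 in all 3 comparisons, the myelin list lies at 0.50, near 0 and at -1.18, and layer 6b genes lie at -2.50 at 3 days and at -2.32 with matching.

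The injured-side band at 3 days lay close to the lesion. The lesion zone was placed by 6 macrophage and lysosome genes (Cd68, Lyz2, Ctsz, Lgals3, Cd52 and Laptm5), which are left out of all results, and covered 5438 bins. Of the 474 injured band bins 101 lay inside it, 344 within 250 µm, 27 from 250 to 500 µm and 2 farther away. Reactive astrocyte genes summed to 4482 CPM inside the zone (4018 to 4986), 3495 CPM within 250 µm (3300 to 3700) and 2643 CPM from 250 to 500 µm (2120 to 3256), and to 268 CPM on the opposite side. They declined with distance but were still far above the opposite side in the farthest stretch. Complement genes declined in the same order, from 1626 to 1099 and 571 CPM against 142 CPM. Since macrophage genes placed the zone, part of that order may come with how it was placed.

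Phagocyte genes were at 5262 CPM inside the zone, a level that comes with how the zone was placed, and at 2734 and 2162 CPM outside it, the last with an interval (1692 to 2723) that took in the 1957 CPM of the opposite side. Interferon and antigen presentation genes had no such decline, with 476 CPM (333 to 659) inside the zone, 782 CPM (691 to 882) within 250 µm and 811 CPM (534 to 1180) beyond. Immediate early genes were lowest inside the zone, at 1309 CPM, below the 1737 CPM of the opposite side, and reached 2016 and 2673 CPM outside it. The matched opposite bins, whose sum is given above, lay closer to the level within 250 µm than the whole opposite band did. Npas4 alone was at 39.7 CPM inside the zone, 278 CPM within 250 µm and 511 CPM from 250 to 500 µm. Interferon and immediate early genes were thus higher outside the zone than inside it, whereas reactive astrocyte, complement and iron genes were higher inside. For complement and iron genes the higher level inside may come in part with how the zone was placed, which was not tested. Homeostatic astrocyte genes were lower inside the zone, at 2195 CPM (1874 to 2555), and at 3917 and 3964 CPM outside it, near the 3993 CPM of the opposite side.

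The synaptic lists had the reverse order. Synaptic vesicle genes summed to 6942 CPM inside the zone, 10639 and 11473 CPM outside it and 14193 CPM on the opposite side, and the glutamate list to 4654, 5813, 6817 and 8821 CPM. GABA receptor genes climbed in the same way, from 754 to 1444 and 1532 CPM against 1695 CPM, and potassium channel genes from 2433 to 2722 and 2943 CPM against 3027 CPM. Not all neuronal lists did so: neuronal cytoskeleton genes were at 5355, 5344 and 6337 CPM against 5234 CPM, and neuronal injury and regeneration genes at 2856, 2452 and 2373 CPM against 2562 CPM. The corticothalamic genes outside the rule were at 635 CPM inside the zone (468 to 841), but at 1169 CPM (1057 to 1290) within 250 µm, an interval that took in the 1283 CPM of the opposite side. The layer 6 identity of the band was thus weaker by these genes inside the zone and, within 250 µm, close to that of the whole opposite band. The whole opposite band covers other distances. For all injured band bins against the matched bins, Hs3st4 (-0.62) and Tle4 (-0.61) passed the fold, while Tbr1 (-0.12) and Zfpm2 (0.11) did not. Without the 101 bins in the zone 800 of 7125 genes were higher (11.2%) and 749 lower (10.5%).

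**Figure D4:**
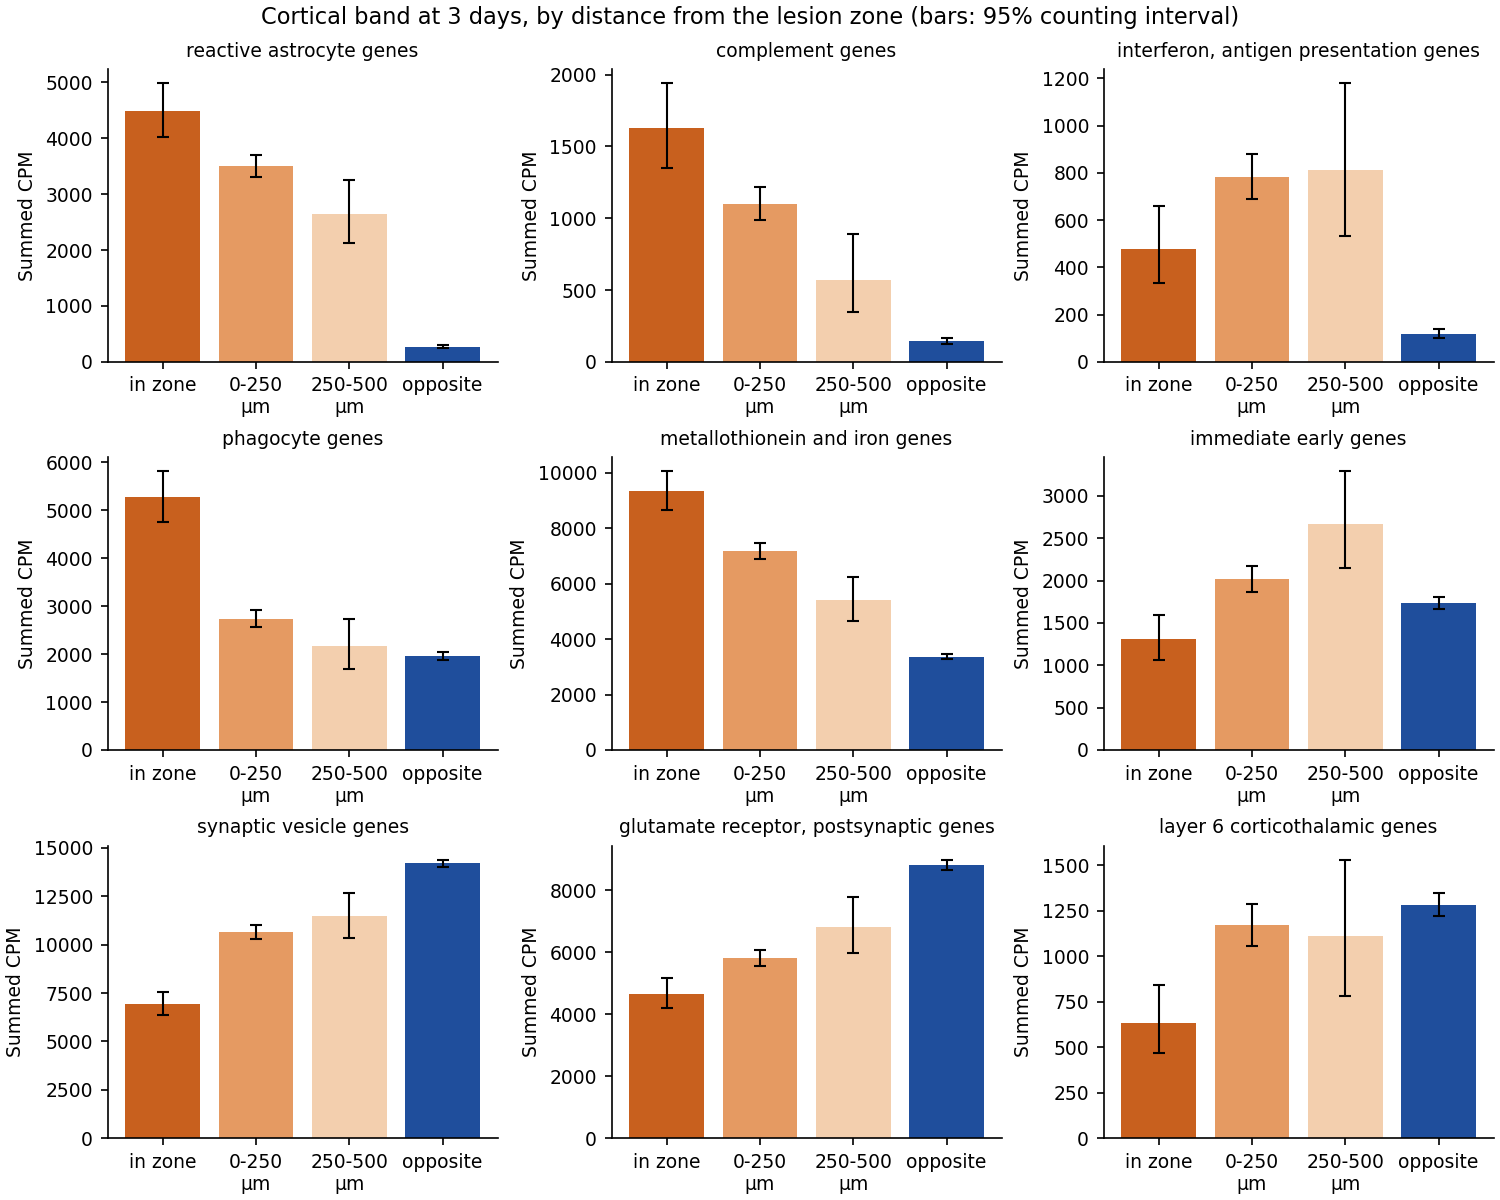
Summed CPM (y axis, from 0) of 9 lists in the cortical band at 3 days, for injured-side bins inside the lesion zone, within 250 µm and from 250 to 500 µm, and for the opposite side, with 95% counting intervals. Reactive astrocyte genes decline from 4482 to 2643 CPM with distance, synaptic vesicle genes climb from 6942 to 11473 CPM, and interferon and immediate early genes are lowest inside the zone among the 3 injured stretches.

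At 28 days few bins of the injured side met the rule within the cortex. Of the 54 band bins there, 5 lay in the lesion zone (11150 bins), 36 within 500 µm of it and 13 farther away. They lay at a median of 3.39 mm from the parting column, where the largest patch had 27 bins. A further 27 of the 54 lay in scattered patches of fewer than 10 bins, against 38 of 396 on the opposite side. The largest patch lay at a median of 3.42 mm, whereas the injured bins at matched distances, given below, ended at 2.83 mm. The opposite band ended at 2.85 mm, where the scored bins of that side ended as well. The sides therefore hold different stretches of cortex, position and injury cannot be told apart, and only 14 injured bins lay at distances that the opposite band holds. Ratios at matched distances rest on these 14 bins, 12 of them within 1 mm of the parting column (median 0.736 mm), against all 396 opposite bins (median 1.56 mm), so that the range of distances was matched but not their spread within it. Synpr was at 508 CPM in the injured bins beyond 3 mm, and the claustrum and endopiriform list summed to 466 against 59.3 CPM, as in the lateral band of the opposite side at 3 days. The 10 injured bins from 2 to 3 mm held 4 UMIs of Foxp2, 1 of Hs3st4 and none of Rprm, Syt6, Tle4 or Tbr1. Penk was at 1472 CPM there (9 UMIs), against 61.8 CPM in the same stretch of the opposite side. With 6113 UMIs in these bins, the interval of 0 UMIs reached up to 603 CPM. Their layer therefore cannot be told from these genes, and they were kept in the band.

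Over all members at 28 days 515 of 5970 genes were higher on the injured side (8.63%) and 617 lower (10.3%). The Tcf7l2 patches made up 210 of the 264 injured and 225 of the 621 opposite members. These counts thus set unlike mixtures of patch and band against each other and are not a difference within layer 6. In the cortical band, at its smaller depth, 229 of 2048 genes were higher (11.2%) and 355 lower (17.3%), and only for 56 and 88 of these did the interval exclude equal levels. Of the 2048 genes measured at both times, 94 were higher at 3 days and 229 at 28 days, with 15 shared (15.96% and 6.55% of each), and 241 and 355 were lower, with 38 shared (15.8% and 10.7%). The 15.96% and 15.8% stand beside the 11.2% and 17.3% of all 2048 genes called at 28 days. For lower genes the overlap was thus no larger than the share over all genes.

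Glial and immune genes were again higher on the injured side. Gfap was at 1302 against 175 CPM (2.89, 2.38 to 3.42, and 3.83 at matched distances), and the reactive astrocyte list summed to 1943 against 294 CPM (2.73). Complement genes, each too sparse alone, summed to 1283 against 127 CPM (3.33). Apoe, which had -0.34 at 3 days, was at 5150 against 1665 CPM at 28 days (1.63, 1.41 to 1.84, and 2.84 at matched distances) and was higher in all stretches of the injured side, with 12138 CPM in the 13 bins within 1 mm of the parting column, 9324 CPM in the 10 bins from 2 to 3 mm and 2482 CPM in the 31 bins beyond, against 1442 to 2012 CPM on the opposite side. All 3 measured phagocyte genes were higher, with 0.94 for Ctsb, and the list summed to 6802 against 2272 CPM (1.58). Clu, clusterin, another apolipoprotein of astrocytes, had 0.90, Mt2 1.34 and Mt1 0.76. Not all genes of metal handling were higher, since Trf, with 2.80 at 3 days, had -0.53, below the fold used. The direction of Mt1 turned with blocks of 7 by 7 bins (-0.057), without Syt6 in the score (-0.046) and with the 98th percentile (-0.44), and that of Mt2 with the last (-0.35). The interferon list summed to 2.39 and the endothelial list to 1.49 on the log2 scale, the latter with -0.85 (-6.75 to 1.08) at matched distances, where the injured side had 1 UMI of the list.

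Myelin genes were lower in the injured band at 28 days as a whole, but not in its 14 bins at matched distances. Of 9 measured genes 8 were lower and none higher (median -1.07), and the sum was 3284 against 7478 CPM (-1.18, -1.42 to -0.96). Mbp was at 991 against 2306 CPM (-1.21), Mobp had -1.07 and Mag -1.61. At matched distances the direction turned, with a list median of 0.39, a sum at 0.22 (-0.11 to 0.52), 0.39 for Mobp and 0.20 for Mag, while Mbp had -0.060. The level was unequal along the band, with Mbp at 2124 CPM in the 13 medial bins and 733 CPM in the 31 lateral ones. The lateral value lies near the 830 CPM of the uninjured lateral band at 3 days. Cholesterol synthesis genes, which myelinating cells use heavily, summed to 602 against 1290 CPM (-1.08).

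Neuronal lists differed less at 28 days. Synaptic vesicle genes had 2 of 15 members lower and none higher (sum -0.29, -0.41 to -0.17), with Snap25 at 3517 against 5696 CPM (-0.69). Of 17 glutamate receptor and postsynaptic genes 5 were higher and 2 lower (median 0.16), with -0.09 for Nrgn. Of the 3 measured corticothalamic genes 2 were lower, with -0.95 (-2.04 to -0.13) for Tbr1, which was at 0.078 when blocks of 3 by 3 bins were scored and at -0.32 at matched distances. Pcp4 had -0.84 and Pcsk2, a protease that processes neuropeptides, -1.10. Nptxr was at 602 against 215 CPM (1.503, and 1.77, 0.32 to 2.80, at matched distances), in the direction opposite to 3 days. It was at 506, 491 and 649 CPM in the 3 stretches of the injured side, with 5, 3 and 23 UMIs, and at 70.2 to 261 CPM on the opposite side. On the opposite side at 3 days Nptxr climbed from 287 CPM within the first mm to 853 CPM beyond 3 mm. The opposite band at 28 days did not hold that lateral stretch, so position and time cannot be told apart for the whole-band values.

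The Tcf7l2 patches, which make up most members of the injured side at 28 days, differed little between sides at that time. Of 4090 genes 134 were higher (3.28%) and 140 lower (3.42%). Reactive astrocyte genes summed to 504 against 488 CPM there, phagocyte genes to 3617 against 3724 CPM and synaptic vesicle genes to 7822 against 7980 CPM. These 3 lists thus differed less in the patches than in the band. At 3 days the patch of the injured side had only 14 bins, and 255 of 1767 genes were higher (14.4%) and 402 lower (22.8%), of which the interval excluded equal levels for 69 and 110.

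Bins of other cortical layers, chosen in the same way by Etv1, Parm1 and Deptor (layer 5) and by Cux2, Rasgrf2 and Otof (upper layers), are given side by side, with no test of the differences. At 3 days there were 33 injured and 1469 opposite layer 5 bins, and 84 and 1493 upper layer bins. Reactive astrocyte genes had a log2 ratio of summed CPM of 3.74 in the layer 6 band, 2.38 in layer 5 bins and 3.42 in upper layer bins. Complement genes had 3.01, 1.79 and 1.85, phagocyte genes 0.68, 0.16 and -0.014, and the glutamate list -0.63, -0.25 and -0.44. Among the lists given here immediate early genes were the exception, with 0.16 in the layer 6 band, 1.05 in layer 5 bins and 1.45 in upper layer bins. Single genes were mixed. Upper layer bins had larger ratios than the band for Snap25 (-1.07 against -0.72) and Hmox1 (6.71 against 6.04). They had smaller ones for C1qa (1.26 against 2.67) and C4b (2.68 against 3.93), while Camk2a was at -0.70 against -0.71.

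At 28 days, with 477 and 563 layer 5 bins and 279 and 621 upper layer bins, the order was the same for glial lists: 2.73, 0.95 and 1.33 for reactive astrocyte genes and 3.33, 1.29 and 1.54 for complement genes. Phagocyte genes had 1.58 in the layer 6 band, 0.46 in layer 5 bins and 0.76 in upper layer bins. Myelin genes had -1.18 in the layer 6 band, but 0.11 in layer 5 bins and -0.04 in upper layer bins. Among the 3 sets of bins the band thus had the highest ratios of complement and phagocyte genes at both times, of reactive astrocyte genes at 28 days, and the lowest myelin ratio at 28 days (0.22 in place of -1.18 in the 14 bins at matched distances). For reactive astrocyte genes at 3 days the order of the band and the upper layer bins depended on the comparison, since the band had 3.19 against its matched bins. Gfap alone was at 3.22 in the band and 3.68 in upper layer bins at 3 days, and at 2.89 and 2.94 at 28 days. The sets also differ in where they lie relative to the lesion.

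**Figure D5:**
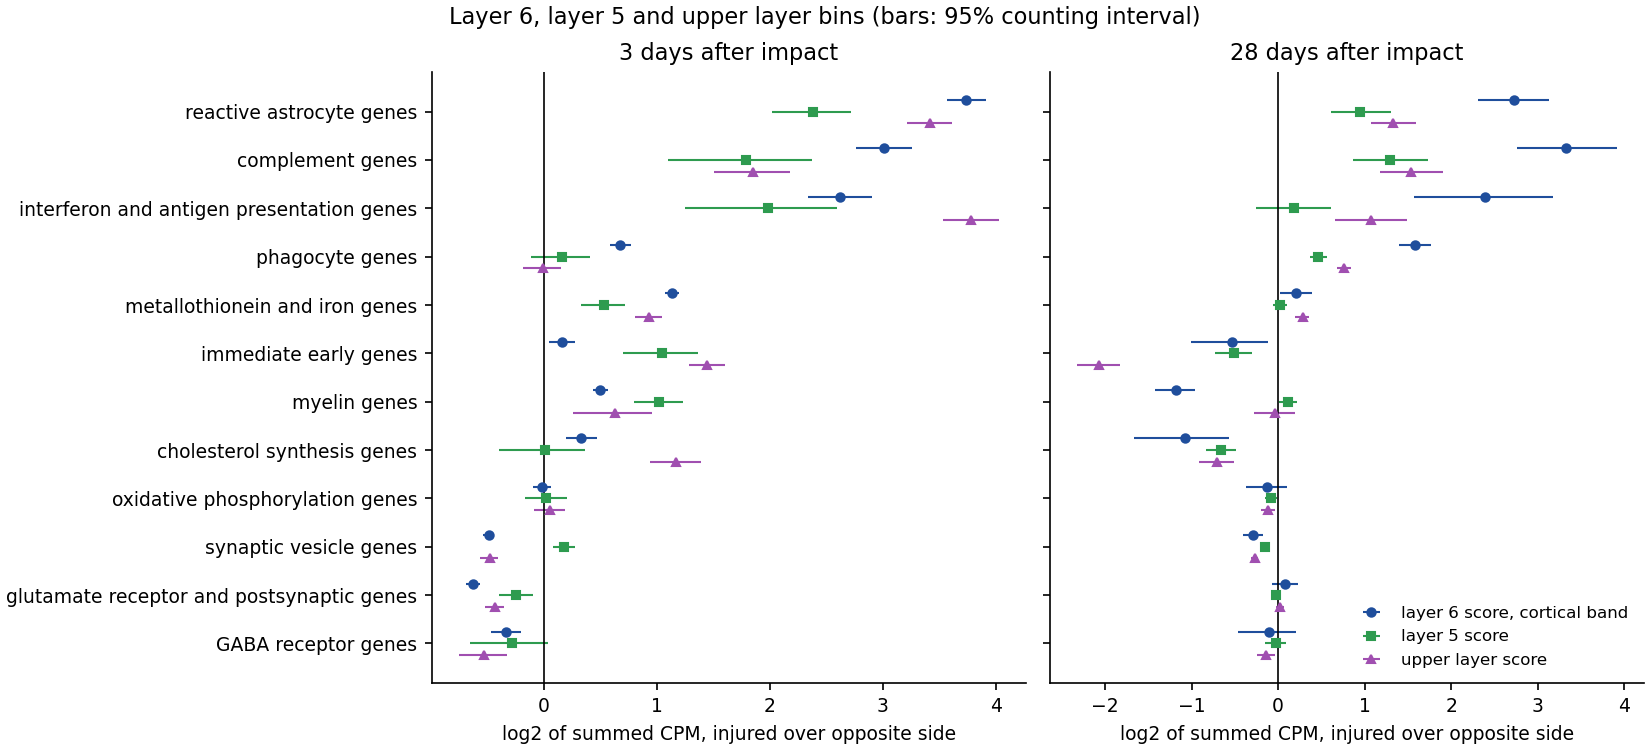
Log2 ratio of summed CPM, injured over opposite side (x axis), for lists of genes in the layer 6 cortical band, layer 5 bins and upper layer bins, at 3 days (left) and 28 days (right), with 95% counting intervals. At 28 days the layer 6 band lies apart for complement genes (3.33) and for myelin genes (-1.18).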

How the data were processed

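Visium HD for fixed tissue was run on 1 coronal brain section of 10 µm per time point. The authors deposited raw UMI counts per gene and 16 µm bin, made with Space Ranger 4.0.1 per the file headers, and the submitters' processing notes name the build mm10. No normalization had been applied, and 19070 genes were listed. Each bin sums smaller squares under tissue, and transcripts may spread between neighbouring bins.

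Bins under 100 UMIs were left out (1.93% at 3 days, 2.15% at 28 days). Injured and opposite side were parted at column 130 and column 240, and a score block held only kept bins. UMIs were summed per side and scaled to CPM. Log2 ratios used a pseudocount of 0.5 UMI and genes with at least 50 UMIs over both sides, without the 4 genes of the rule and its gate and the 6 genes of the lesion zone. The zone was made of patches of at least 400 bins in which the 6 genes had a higher share of a 9 by 9 block than in 99% of opposite-side bins. Intervals were exact conditional binomial (ratios), exact Poisson (levels) and Clopper-Pearson (shares). Bins are not replicates, so no test was made.

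The members, and the 35 lists (380 genes, 373 in the files), were chosen with earlier results of these data known. Named genes were the 10 highest and 10 lowest with at least 200 UMIs, per list the 3 with the largest ratio and the 2 with the most UMIs, all layer genes, and the genes that led the members over other scored bins. The 28 days values of Nptxr and Grin2a were added as the same gene at the other time. These 2 values were recomputed at matched distances but under no other alternative. No alternatives are given for the 3 days value of Thsd7b and the 28 days value of Trf, and only matched distances for the 3 days values of Sulf2 and Fezf2. Some genes that met the rule are not reported here. The split into band and Tcf7l2 patches (patches with at least 3 Tcf7l2 UMIs at 100 CPM or more), the minimum of 10 bins per side and of 4 genes for a list median in the alternatives, and the 250 µm edge were chosen after the data were seen. That minimum was first 20 bins and was lowered with results known, since 20 left the band at 28 days without values at the 98th percentile and at matched distances. Alternatives were other cuts, blocks, gates, filters, score genes, parting columns, patches, scalings (edgeR TMM among them), pseudocounts and folds. The calculations were tested on simulated data. Scaling factors came from edgeR 4.0.16 in R 4.3.3, and all else from Python 3.11.15 with NumPy 2.4.6, pandas 2.3.3, SciPy 1.17.1 and Matplotlib 3.10.9.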

Additional observations from a re-analysis of the deposited data

Results flagged for a closer look

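The following values had opposite directions at the 2 time points in the cortical band, each against the opposite side of its own section. The differences between time points were not tested, since each time point is 1 animal. The median log2 ratio of the myelin genes was 0.68 at 3 days and -1.07 at 28 days, but at matched distances from the parting column it was -0.021 and 0.39. Within that list Mobp had 0.62 (matched 0.06) and -1.07 (matched 0.39), and Mag had 1.04 (matched 0.51) and -1.61 (matched 0.20). Nptxr had -1.53 (matched -0.72) at 3 days and 1.503 (matched 1.77) at 28 days. Its level on the opposite side at 3 days climbed with distance, from 287 CPM within the first mm to 853 CPM beyond 3 mm. The glutamate receptor subunits Grin2a and Gria4 had -1.05 and -0.87 at 3 days (matched -0.95 and -0.34) and 0.74 and 0.97 at 28 days (matched 0.89 and 1.16). The injured bins lay at a median of 0.928 mm from the parting column at 3 days and 3.39 mm at 28 days, where the matched values rest on 14 injured bins.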

How the results depend on the processing

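No paired analysis was possible because each time point is 1 section. The injured side had 488 members at 3 days in the main setting, and 278 with the 98th percentile, 241 with blocks of 3 by 3 bins and 160 without Syt6. At 28 days it had 264, 481 with the parting column 15 higher and 54 in the cortical band. Over all members at 3 days, 923 genes were higher, and 558 with the 98th percentile, 384 in the largest patches, 581 at matched distances, 1668 and 152 with minimums of 20 and 200 UMIs, 3774 with no filter and 325 at a fold of 2. The 821 lower genes became 358 in the largest patches, 512 at matched distances, 1278 by UMIs per bin, 1233 and 230 with those minimums, 1847 with no filter and 267 at a fold of 2. At 28 days 515 were higher, and 205 with the 98th percentile, 330 with blocks of 3 by 3 bins, 315 without Syt6, 1210 with the parting column 15 higher, 134 in the largest patches, 811 at matched distances, 1691 by UMIs per bin, 1199 and 67 with the 2 minimums, 3310 with no filter, 73 at a fold of 2 and 229 in the band. The 617 lower genes became 261, 407, 401, 978 and 140 in the first 5 of these, 298 by UMIs per bin, 1139 and 127, 3070, 255 and 355. In the band at 3 days the median of upper layer genes (-1.28) was 0.83 in the largest patches and 0.28 at matched distances. That of myelin genes (0.68) was -0.070 and -0.021 there, 0.54 with the 98th percentile and 0.46 without Rprm. That of endothelial genes (0.64) was 0.37 with the 98th percentile, 0.36 and 0.51 with blocks of 3 and 7, and 0.57 and 0.41 with a gate of 5 and 20 UMIs. Without Syt6 the claustrum sum was 0.93, Synpr 0.999 (0.056 at matched distances) and Tle4 0.34. Without Foxp2 Tle4 was 0.033 and Ccn2 0.28, and Mobp was -0.085 in the largest patches. At 28 days the layer 5 sum was 0.23 over all members, and the microglia sum -0.18 in the largest patches and -0.26 over all members. Mt1 was -0.057 with blocks of 7, -0.046 without Syt6 and -0.28 in the largest patches, where Mt2 was -0.14. Tbr1 was 0.078 with blocks of 3, and Pcp4 0.35 over all members. The gene counts over all members mix band and Tcf7l2 patches in unlike shares on the 2 sides, and for them the largest patches at 28 days are the Tcf7l2 patches. For lists and named genes they are the largest patches of the band, with 27 injured and 91 opposite bins. The cause of these changes was not tested, apart from fewer or more genes under a filter. The band and all-member settings, and leaving out the patch of 21 bins at 3 days, were added after the data were seen. Without that patch no list or named gene in the band turned its direction, and Tle4 (-0.56) alone fell below the fold. For the band at 28 days matched distances left 14 injured bins, where the median of myelin genes was 0.39 and its sum 0.22, Mobp 0.39, Mag 0.20, and the sums of layer 5, claustrum, oligodendrocyte precursor and endothelial genes 0.82, -0.30, 0.041 and -0.85, with 0 UMIs of claustrum and 1 UMI of endothelial genes on the injured side. The 98th percentile left 18 injured bins, with sums of upper layer and microglia genes at -0.71 and -0.29, Mt1 at -0.44 and Mt2 at -0.35. The 54 injured bins at 28 days limit single genes to those with wide intervals.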
